A study of Mus musculus with 6 samples.

Results

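Transcripts of 10 genes for AP-1 and other early-response proteins were described in macrophages (MPs) of injured muscle: Fos, Fosb, Fosl2, Jun, Junb, Jund, Atf3, Egr1, Ier2 and Maff. The genes were taken by symbol from the gene table, and all 10 were among its 13008 genes. RNA-seq was done on 3 Control and 3 Cripto KO samples of GFP+/F4/80+/Ly6C-low MPs, sorted from hind limb muscles of mice of 3 months on day 5 after cardiotoxin, a snake toxin that destroys muscle fibers. All animals were C57BL/6J and labelled male. Cripto KO mice carried Tg:LysMCre::Cripto-/-, in which Cre, driven by the Lyz2 (LysM) gene of myeloid cells, deletes Cripto, a co-receptor and ligand-binding protein of the TGFβ family encoded by Tdgf1. Control mice are labelled wild type. In the study, the GFP-Control mice also carry LysMCre. Both they and the Cripto KO mice used for GFP sorting carry the R26mTmG reporter, which turns recombined cells green. The deletion in GFP+ MPs was incomplete. Tdgf1 is not reported here, which leaves the genotypes as the labels give them.

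AP-1 is a pair of leucine-zipper (bZIP) proteins on one DNA site. Jun proteins pair with each other or with a Fos protein, whereas Fos proteins need a partner, and ATF and MAF proteins join through the same kind of zipper. Immediate-early genes such as Fos, Junb, Egr1 and Ier2 are known to be transcribed within minutes of a signal through MAP kinases, SRF and CREB, without new protein synthesis, and their transcripts are short-lived. In MPs, AP-1 proteins bind enhancers together with PU.1 and take part in the response to microbial and tissue signals. The same genes are known to respond to handling of tissue. All 6 samples went through enzymatic digestion of muscle before sorting, and levels before digestion were not measured.

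None of the 10 genes differed between Control and Cripto KO MPs in the test adjusted over all genes, which does not show that the groups were equal. Atf3 had the largest difference. It was 1.18-fold higher in Control, with no overlap of the groups, at an adjusted p of 0.500 in limma. The other genes lay between 1.17-fold (Egr1) and 0.924-fold (Fosl2), so the direction was not shared. Over the 10 genes, the widest limits of the 95% intervals were 0.791-fold (for Fosl2) and 1.40-fold (for Egr1).

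Stretches of promoter are printed for 4 of the genes whose values are set side by side later: Fos, with a pattern over samples close to that of Ier2, Jun and Maff, with unlike patterns and the same 8 bases at the same distance from a start, and Atf3, with the largest difference. RefSeq promoters on GRCm38.p6, each of 250 bases before and 50 after an annotated start, were found for 8 of the 10 genes, as 10 promoters in all, 3 of them of Maff. Capitals mark TGACG (the core of a CRE site, CGTCA on the other strand), TGACNTCA (an AP-1 or CRE site of 8 bases, of which TGACGTCA also holds TGACG) and TATAAA. The windows are chr12:85473640-85473939 on the plus strand for Fos, chr4:95052173-95052472 on the minus strand for Jun, chr1:191183284-191183583 on the minus strand for Atf3 and chr15:79348152-79348451 on the plus strand for the third Maff start. The Atf3 window lies inside the annotated gene, whose longest form starts further upstream.
Fos: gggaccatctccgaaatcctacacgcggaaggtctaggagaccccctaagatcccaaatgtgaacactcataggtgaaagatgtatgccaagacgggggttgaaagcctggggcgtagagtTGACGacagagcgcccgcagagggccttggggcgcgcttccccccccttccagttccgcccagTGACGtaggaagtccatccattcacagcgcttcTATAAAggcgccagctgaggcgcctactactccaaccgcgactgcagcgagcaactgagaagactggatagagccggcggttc
Jun: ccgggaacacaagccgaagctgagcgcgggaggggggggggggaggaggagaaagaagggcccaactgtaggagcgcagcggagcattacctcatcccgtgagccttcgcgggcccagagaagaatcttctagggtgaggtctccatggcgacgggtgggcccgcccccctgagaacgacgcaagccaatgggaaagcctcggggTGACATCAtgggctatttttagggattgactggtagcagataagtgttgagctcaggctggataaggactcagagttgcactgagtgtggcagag
Atf3: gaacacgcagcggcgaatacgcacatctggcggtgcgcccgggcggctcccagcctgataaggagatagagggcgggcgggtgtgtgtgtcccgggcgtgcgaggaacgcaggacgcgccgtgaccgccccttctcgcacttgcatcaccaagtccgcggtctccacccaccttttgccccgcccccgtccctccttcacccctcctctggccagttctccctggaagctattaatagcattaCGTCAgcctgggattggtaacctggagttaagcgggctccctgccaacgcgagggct
Maff: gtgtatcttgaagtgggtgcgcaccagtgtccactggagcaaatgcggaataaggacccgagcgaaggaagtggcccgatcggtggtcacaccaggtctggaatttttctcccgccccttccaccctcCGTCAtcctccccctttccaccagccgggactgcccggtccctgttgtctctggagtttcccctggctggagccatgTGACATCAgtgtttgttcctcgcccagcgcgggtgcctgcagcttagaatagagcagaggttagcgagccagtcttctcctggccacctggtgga

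In Fos, TGACG stands at 129 to 125 and at 66 to 62 bases before the start, and TATAAA at 33 to 28. Jun and the third start of Maff both hold TGACATCA at 45 to 38 bases before the start. Atf3 has CGTCA at 7 to 3 bases before it. On both strands, TGACG was in 6 of the 10 promoters and in 20.8% of 32851 promoters of all genes, and TGACNTCA was in 3 and in 8.83%. TATAAA was in 2 and in 13.6%. The EGR site GCGNGGGCG was in 3 (Fosb, Fosl2 and the second Maff start) and in 5.55%. Neither the AP-1 site TGACTCA (5.2% of all promoters) nor the SRF site known as the CArG box (1.63%) was found in these 10 windows. Sites further than 250 bases before a start were not searched, and no promoter of Egr1 or Ier2 was available. These genes may therefore have SRF sites that were not seen. None of these motifs was in the Jund window, chr8:70697489-70697788 on the plus strand, which ends upstream of the gene as GENCODE places it. A match is a run of letters, and no binding was measured.

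The deposited values are reads per gene with 0.5 added, per 1000000 reads of a normalized library. The Control libraries held 12688968 to 14141773 recovered reads and the Cripto KO libraries 14633880 to 15659847. At this depth, counting error was 0.417% for Junb and 3.04% for Maff, the lowest of the 10, below the spread between samples of a group. A pair of libraries stood apart in single genes. Xist was at 171 in Control 1 and at most 0.885 in the others, although all are labelled male, and Lyz2 was at 11066 in Control 2 and at most 28.3 in the others, so the ratios of the 10 genes are also given without each of them. Macrophage markers (Adgre1, Cd68, Csf1r, Itgam and Mertk) summed to 4744 to 5271 in Control and 4597 to 5168 in Cripto KO samples. Of other cells, 8 fibroblast markers summed to 463 to 485 in Control and to 545 to 596 in Cripto KO samples, and 8 muscle fiber markers to 42.9 to 86.4 and to 19.7 to 58.8. The sums were 42.4 to 51.6 and 43.8 to 49.8 for 6 endothelial markers and 42.3 to 62.8 and 58.8 to 77.6 for Ly6c1, Ly6c2 and Ccr2. Of 7 neutrophil markers 4, and both lymphocyte markers measured of 8 listed, were at 3 reads or fewer in all samples. Of the other neutrophil markers, S100a8 was at 0.694 to 1.07 in Control and 1.17 to 1.55 in Cripto KO samples. Mmp8 was at 6.52 to 10.1 and Cxcr2 at 0.413 to 1.14 over the samples, with overlap of the groups. The part of these cells in the values that follow was not tested. In sorted bulk samples, fewer cells of a type and less RNA per cell cannot be told apart.

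Among the Fos proteins, Fos (ENSMUSG00000021250, chr12:85473890-85477273), the partner of Jun in classical AP-1, was at 1510.4, 1647 and 1556 in Control 1 to 3 and at 1795, 1453 and 1623 in Cripto KO 1 to 3. The Cripto KO samples held both the highest and the lowest value and enclosed all Control samples. The means were 1571 ± 69.6 and 1624 ± 171 (SD, n = 3), and the log2 ratio of Control to Cripto KO was -0.04 with a 95% interval of -0.25 to 0.17 (limma, adjusted p = 0.926). It was -0.01 without Control 1, -0.08 without Control 2 and, with the opposite sign, 0.03 without Cripto KO 1.

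Fosb (ENSMUSG00000003545, chr7:19302696-19310051), which is close to Fos and has a short form that lacks the end of the protein, was at 1432, 1456 and 1481 in Control and at 1258, 1351 and 1398 in Cripto KO samples. Every Control sample was above every Cripto KO sample, by little: the lowest Control and the highest Cripto KO sample were 1432 and 1398. The means were 1457 ± 24.2 and 1335 ± 71.2 (SD, n = 3), a log2 ratio of 0.13 with an interval of -0.04 to 0.29 (limma, adjusted p = 0.690). The ratio was 0.14 without Control 1 and 0.13 without Control 2.

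Fosl2 (ENSMUSG00000029135, chr5:32135801-32157842) encodes Fra-2, which lacks the strong activation domain of Fos. It was at 626, 546 and 616 in Control and at 558, 686 and 696 in Cripto KO samples. Cripto KO 1 lay among the Control samples and the other 2 were above them all. The log2 ratio was -0.11 with an interval of -0.34 to 0.11 (limma, adjusted p = 0.790), and it was -0.15 without Control 1, -0.05 without Control 2 and -0.22 without Cripto KO 1.

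Of the Jun proteins, Jun (ENSMUSG00000052684, chr4:95049034-95052222), the AP-1 subunit that JNK phosphorylates, was at 912, 1186 and 1031 in Control and at 1229, 905 and 914 in Cripto KO samples. Its highest and lowest samples both were Cripto KO samples, and it had the widest spread of the 10 genes within groups, with an SD of 13.2% of the mean in Control and 18.1% in Cripto KO samples. The means were 1043 ± 138 and 1016 ± 185 (SD, n = 3), and the log2 ratio was 0.04 with an interval of -0.26 to 0.35 (limma, adjusted p = 0.954). Its sign rested on single libraries, being 0.14 without Control 1 and 0.19 without Cripto KO 1 but -0.05 without Control 2 and -0.03 without either of the other 2 Cripto KO samples.

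Junb (ENSMUSG00000052837, chr8:84974484-84978718), a Jun protein that activates fewer sites alone and opposes Jun at some, was at 4121, 3868 and 4094 in Control and at 4238, 4217 and 4180.4 in Cripto KO samples. All Cripto KO samples were above all Control samples, and their SD was 0.688% of their mean. The means of 4028 ± 139 and 4212 ± 29.0 (SD, n = 3) gave a log2 ratio of -0.07 with an interval of -0.26 to 0.13 (limma, adjusted p = 0.869). It was -0.08 without Control 1 and -0.04 without Control 2.

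Jund (ENSMUSG00000071076, chr8:70698949-70700616), known for a steady level in resting cells, was at 1960.5, 2290.3 and 1955 in Control and at 1992, 2001 and 1846 in Cripto KO samples. Control 2 was above the other 5 samples, which overlapped. The log2 ratio was 0.08 with an interval of -0.12 to 0.29 (limma, adjusted p = 0.826), and 0.01 without Control 2. It was 0.12 without Control 1.

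All 3 genes of the Jun family overlap exons of a gene on the other strand, and the strand setting of the libraries was not stated, so reads over these stretches cannot be told apart. Prdx2, opposite to Junb, was at 178 to 202 over the 6 samples. Junos, opposite to Jun, was at 0.999 to 2.41 and Gm11175, opposite to Jund, at 0.0368 to 9.17. All 3 were below the Jun family gene that they overlap. Words of 31 bases shared with other genes made up at most 0.0622% of any of the 10 genes.

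Atf3 (ENSMUSG00000026628, chr1:191170296-191218039) is a stress-inducible bZIP protein known to hold down inflammatory genes in MPs after Toll-like receptor signals. It was at 1368, 1568 and 1504 in Control and at 1291, 1304 and 1171 in Cripto KO samples. Each Control sample was above each Cripto KO sample, with Control 1 nearest to them. The means were 1480.2 ± 102 and 1255 ± 73.3 (SD, n = 3), and Control was 1.18-fold higher with an interval of 1.03 to 1.34, or 0.24 ± 0.08 (SE) on the log2 scale. The unadjusted p was 0.0189 and the adjusted p 0.500 in limma, and 488 genes of the table had a smaller p.

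The log2 ratio of Atf3 was 0.29 without Control 1 and 0.19 without Control 2. Over the 17 alternatives it was between 0.19 and 0.29, with adjusted p-values of limma, edgeR and DESeq2 between 0.263 and 0.893. The unadjusted p was under 0.05 in all 11 alternatives with 6 samples and in 3 of the 6 that left 1 sample out.

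**Figure D1:**
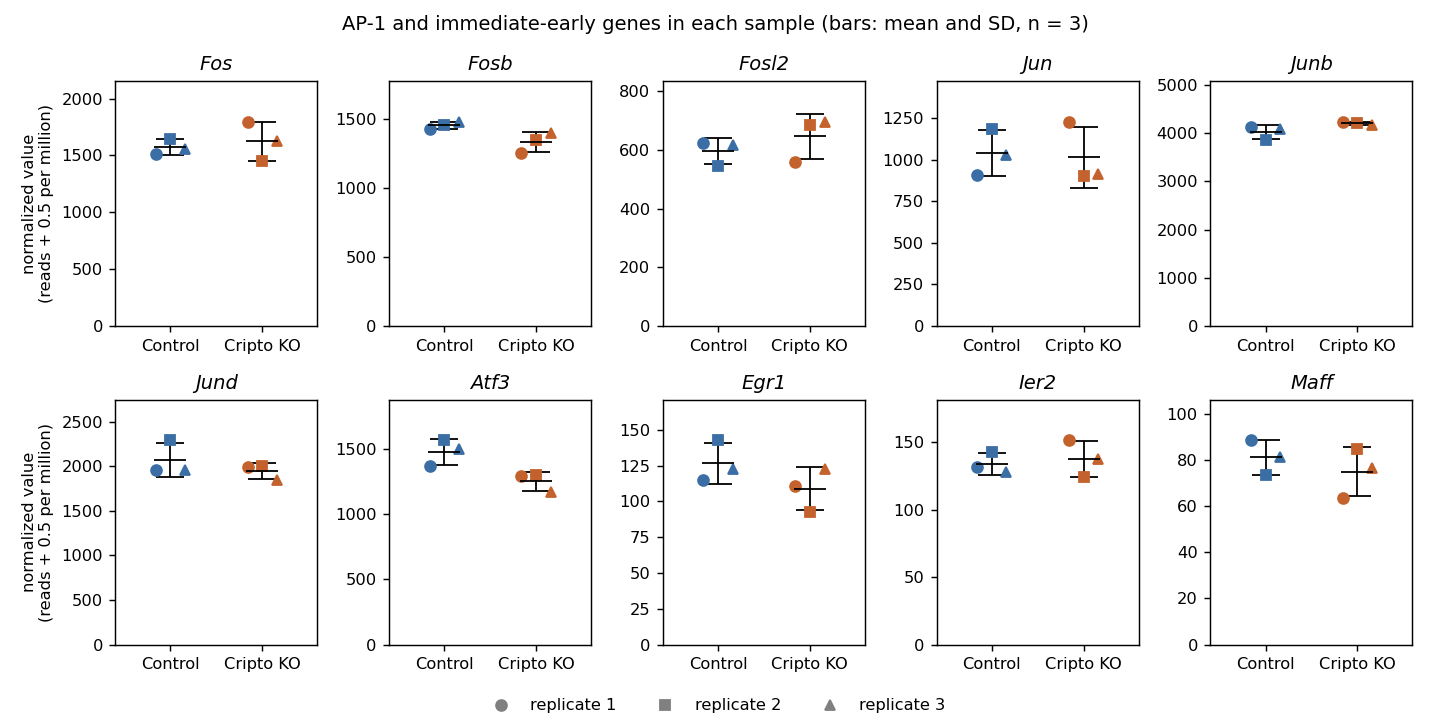
Normalized value of each of the 10 genes (vertical axes, from 0) in the 3 Control (blue) and 3 Cripto KO (orange) samples, with mean and SD as bars and the replicate number as the marker's shape, which pairs no samples. Atf3 and Fosb were higher in every Control sample and Junb in every Cripto KO sample, whereas the values of the other 7 genes overlapped.

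Maff (ENSMUSG00000042622, chr15:79346621-79359076), a small MAF protein without an activation domain of its own, was at 88.5, 73.5 and 81.4 in Control and at 63.5, 84.6 and 76.4 in Cripto KO samples. Control 2 and Cripto KO 1 were the lowest of their groups, and the groups overlapped. The log2 ratio was 0.12 with an interval of -0.13 to 0.38 (limma, adjusted p = 0.800). It was 0.06 without Control 1, 0.19 without Control 2 and 0.01 without Cripto KO 1.

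Egr1 (ENSMUSG00000038418), a zinc finger protein that MAP kinase signals switch on, was at 115, 143 and 123 in Control and at 111, 92.9 and 123 in Cripto KO samples. The third samples of both groups were alike, Control 2 was the highest and Cripto KO 2 the lowest, a ratio of 1.54 that was the widest among the 10 genes. The means were 127 ± 14.3 and 109 ± 15.1 (SD, n = 3), a log2 ratio of 0.22 with an interval of -0.04 to 0.48 (limma, adjusted p = 0.652). It was 0.29 without Control 1, 0.14 without Control 2, 0.11 without Cripto KO 2 and 0.32 without Cripto KO 3.

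Ier2 (ENSMUSG00000053560, chr8:84661331-84662852), a nuclear protein that is not a bZIP factor, was at 131, 143 and 128 in Control and at 151, 124 and 137 in Cripto KO samples. As in Fos, the Cripto KO samples held the highest and the lowest value. The log2 ratio was -0.04 with an interval of -0.23 to 0.15 (limma, adjusted p = 0.931), and -0.02 and -0.08 without Control 1 and Control 2. Without Cripto KO 1 it was 0.03.

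In the fit over all genes, 0 of the 10 genes passed an adjusted p of 0.05 in limma, edgeR or DESeq2 (background in limma, 0.131% of genes). At an unadjusted p under 0.05 limma called 1, Atf3 (background 8.59%), and edgeR and DESeq2 also called this 1 gene. The groups did not overlap in 3 of the 10 (background 14.5%), of which 2 were higher in Control and 1 in Cripto KO. Of the genes, 6 had a positive and 4 a negative ratio. Their median log2 ratio was 0.06 and the median of its size 0.10, against 0.01 and 0.12 over all genes. The central 95% of all genes lay between -0.80 and 0.62.

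**Figure D2:**
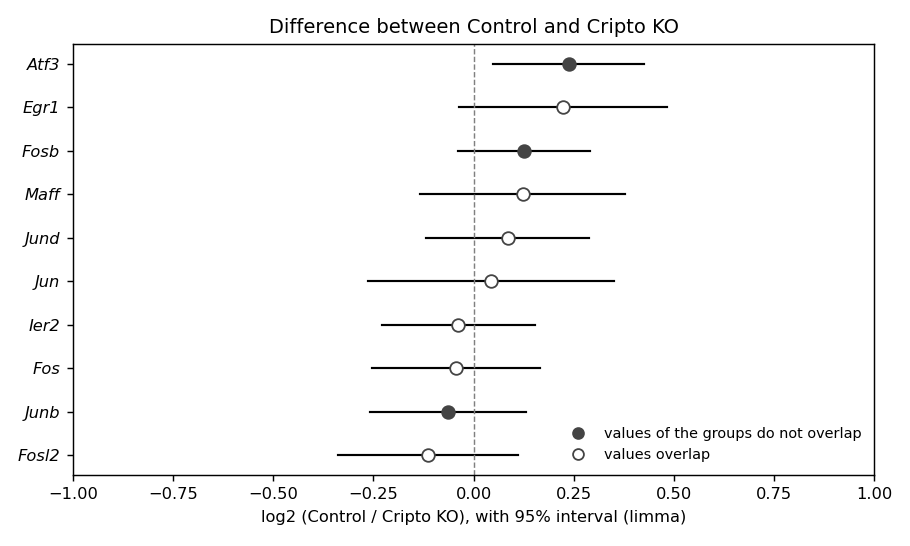
Log2 ratio of Control to Cripto KO (horizontal axis) for the 10 genes with 95% intervals of limma as lines, filled where the values of the groups do not overlap. The interval of Atf3 (0.05 to 0.42) does not include 0, while those of the other 9 do.

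Levels were set side by side between genes per kb of merged exon. Junb was the most abundant, at 1750.4 ± 60.4 in Control and 1830.4 ± 12.6 in Cripto KO samples (SD, n = 3), above 99.8% of all genes. Jund followed at 1240.2 ± 115 and 1167 ± 52.4. Fos (668 ± 29.6 and 690.4 ± 72.9) and Atf3 (687 ± 47.4 and 583 ± 34.0) overlapped in their samples and could not be ordered. Then came Jun at 327 ± 43.2 and 319 ± 57.9, Fosb at 233 ± 3.88 and 214 ± 11.4, Ier2 at 87.9 ± 5.15 and 90.4 ± 8.81 and Fosl2 at 61.6 ± 4.51 and 66.8 ± 7.95. Maff (31.3 ± 2.89 and 28.8 ± 4.10) and Egr1 (28.3 ± 3.19 and 24.3 ± 3.37) were lowest and overlapped, and even Egr1 was above 86.6% of genes. All other neighbours were apart in all 6 samples. The order depended on the length used for 3 neighbouring pairs. With the length of the principal transcript, chosen after the data were seen, Fosb (333 to 392 per kb) and Jun (284 to 386) overlapped and could not be ordered, and neither could Fosl2 (83.5 to 106) and Ier2 (81.8 to 99.4). By the same length, Maff (32.4 to 45.2) was above Egr1 (20.7 to 31.8) in all samples.

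**Figure D3:**
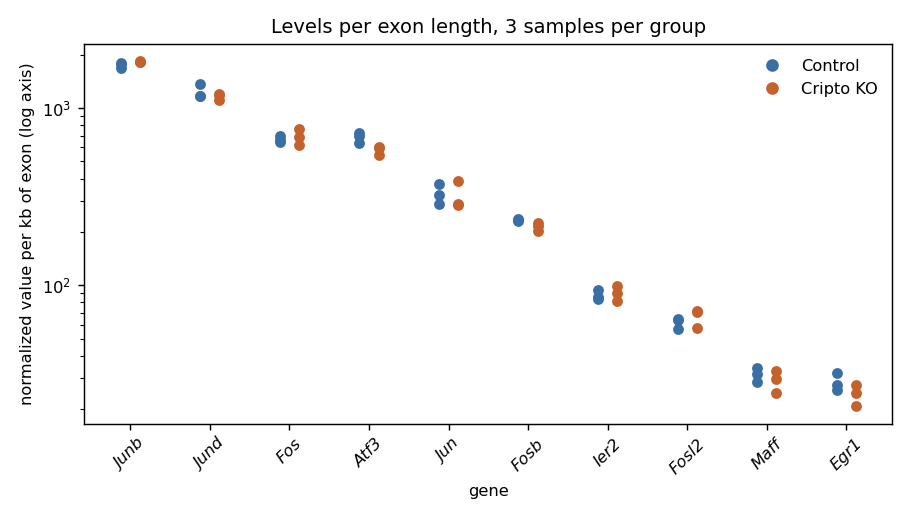
Normalized value per kb of merged exon (log axis) in each sample, with genes ordered by their mean. Values run from Junb, at 1750.4 in the mean of Control, to Egr1, at 28.3, and Fos with Atf3 and Maff with Egr1 share their ranges.

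The shares of single genes in the sum of their family per kb of merged exon overlapped between the groups. Their size depends on the length used. With the length of the principal transcript, the mean level rose from 679 to 758 for Fos and from 224 to 369 for Fosb. For Junb it rose from 1790 to 2277, while Jun and Jund were unchanged. The shares below hold for merged exons only. Fos gave 68.1% to 74.6% of the Fos family sum over the 6 samples, Fosb 19.7% to 24.6%, Fosl2 5.63% to 7.82% and Fosl1 (Fra-1), which is no member, 0.0839% to 0.182%. The sum was 964 ± 26.5 per kb in Control and 972 ± 59.8 in Cripto KO samples (SD, n = 3). In the Jun family, Junb gave 49.1% to 56.6%, Jund 34.5% to 40.1% and Jun 8.56% to 11.3%, with sums of 3318 ± 94.6 and 3316 ± 106. Cripto KO 1 had the highest share of both Fos and Jun, and the lowest of Fosb and Fosl2.

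In 9 of the 10 genes, all but Atf3, the range of values within at least 1 group was wider on the log2 scale than the difference between the groups. Deviations were taken on the log2 scale from the mean of the own group. Jun, Fos and Ier2 were high in Cripto KO 1 (0.29, 0.15 and 0.14), where Maff and Fosl2 were low (-0.23 and -0.21). In Control 2, Jun, Jund and Egr1 were high (0.19, 0.15 and 0.18), and Maff and Fosl2 again low (-0.14 and -0.12). Cripto KO 2 was low for Egr1, Fos and Ier2 (-0.22, -0.16 and -0.14) and high for Maff (0.19). Of the 10 genes, 4 had their highest value in Cripto KO 1 and 3 in Control 2, while 4 had their lowest in Cripto KO 2. Jun and Maff, with TGACATCA at the same distance from a start, deviated in opposite directions in Cripto KO 1 and Control 2. Of the Maff starts, only the third holds TGACATCA. Which start these cells used was not measured, and a link between the motif and the deviations was not tested. Nothing was tested over these deviations.

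**Figure D4:**
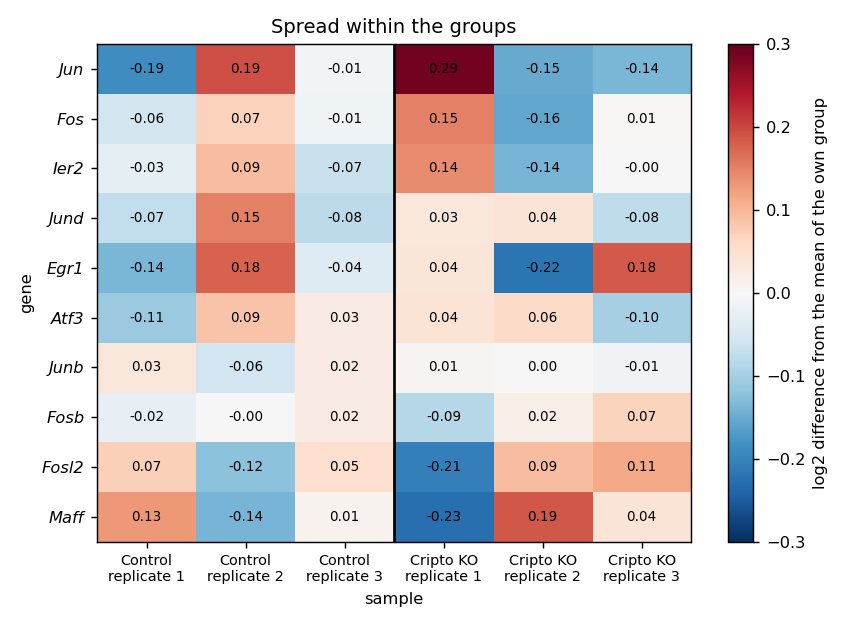
Log2 difference of each gene (rows) from the mean of its own group in each of the 6 samples (columns), red for above and blue for below. Jun, Fos and Ier2 are above the mean in Cripto KO 1 (0.29, 0.15 and 0.14), where Fosl2 and Maff are below it (-0.21 and -0.23).

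For each gene, the 3 nearest genes were sought among 11960 with a mean value of at least 1, by the root-mean-square difference of log2 values centred over the 6 samples. Fos was nearest to Tmub2 (0.0227), Scamp4 (0.0257) and, as the third, Ier2 (0.0283), the only pair among the 10 genes in which one was among the nearest 3 of the other. The difference of 0.0283 compares with 0.0980 for the deviations of Fos alone. Atf3 was nearest to Upf3a (0.0271), Snx5 (0.0309) and Mnat1 (0.0330), and Egr1 to Tnfrsf23 (0.0570), Coq9 (0.0681) and Abcg3 (0.0699), the least alike of these. Among the Fos and Jun proteins, Fosb was nearest to Erp44 (0.0127), Golga4 (0.0161) and Eif3g (0.0187), and Fosl2 to Celf1 (0.0336), Bop1 (0.0372) and Cd244 (0.0378). Jun was nearest to Tgds (0.0300), Armc5 (0.0310) and Dcakd (0.0388), and Junb to BC004004 (0.0223), Nme1 (0.0239) and Clcc1 (0.0244). Jund was nearest to Pycrl (0.010), Srpr (0.0109) and Usp12 (0.0153). Ier2 was nearest to Rnf5 (0.0170), Aqr (0.0224) and Tab1 (0.0232), and Maff to Gtf2b (0.0247), Ppard (0.0252) and Kdm2a (0.0259). With 6 samples and 11960 candidates, near genes are a description of these libraries.

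Partners that share the zipper were also measured, 17 of 18 listed, among them BATF, MAF, NRF and BACH proteins. None passed an adjusted p of 0.05 in limma, edgeR or DESeq2, and 3 of the 17 had an unadjusted p under 0.05 in limma, all higher in Control, against 8.59% of all genes in either direction. No gene of this list passed an adjusted p of 0.05 without Control 1 or without Control 2. Nfe2l2, which encodes the oxidative stress factor NRF2 and pairs with small MAF proteins such as Maff, was at 621, 564 and 568 in Control and at 453, 494 and 498 in Cripto KO samples. These groups did not overlap, with a log2 ratio of 0.28 and an interval of 0.12 to 0.44 (limma, adjusted p = 0.379, and 0.305 and 0.465 without Control 1 and Control 2). Bach2, a repressor that also pairs with small MAF proteins, had a ratio of 0.47 (limma, adjusted p = 0.448) and Batf2, a partner of Jun proteins, one of 0.55 (limma, adjusted p = 0.548). Both were low, at 6.19 to 9.73 and 2.72 to 6.16 over the samples. The median over the list was 0.09.

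Of 31 other immediate-early genes, 0 passed an adjusted p of 0.05 in limma and edgeR and 1 did in DESeq2 (71 of all 13008 genes). In limma 8 of the 31 had an unadjusted p under 0.05, 4 in each direction, against 8.59% of all genes, and the median log2 ratio was 0.02. Klf4, a Kruppel-like factor of monocytes and MPs, was the gene that DESeq2 called. It was at 514, 556 and 524 in Control and at 433, 440.4 and 406 in Cripto KO samples, without overlap, with a log2 ratio of 0.32 and an interval of 0.17 to 0.47 (limma, adjusted p = 0.235, and 0.147 and 0.433 without Control 1 and Control 2). Klf6, of the same family, had 0.25 (limma, adjusted p = 0.407), Trib1, a pseudokinase, 0.23 (0.536) and Ier5, a nuclear regulator of heat-shock factor, 0.18 (0.529). In the other direction were Cyr61, a secreted matrix protein, at -0.53 (limma, adjusted p = 0.420), Ier5l at -0.33 (0.416), Btg2, a growth inhibitor, at -0.25 (0.537) and Plk3, a stress kinase, at -0.18 (0.548). Fibroblasts are known to express Cyr61, and the sum of fibroblast markers was also higher in Cripto KO samples. A link between them was not tested.

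Upstream, 22 MAP kinases, SRF cofactors and CREB genes were measured. None passed an adjusted p of 0.05 in limma, edgeR or DESeq2. Map2k4, a kinase that activates JNK, was the only one of the 22 with an unadjusted p under 0.05 in limma (8.59% of all genes), at 33.3, 36.3 and 35.5 in Control and at 27.8, 30.1 and 32.0 in Cripto KO samples. The values did not overlap, with a log2 ratio of 0.23 and an interval of 0.03 to 0.42 (limma, adjusted p = 0.529, and 0.407 and 0.680 without Control 1 and Control 2). The median over these genes was 0.03.

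Of 16 genes known as targets of AP-1, 1 passed an adjusted p of 0.05 in limma (background 0.131% of genes). An unadjusted p under 0.05 in limma was found for 3 of the 16 (background 8.59%), 1 higher in Control and 2 in Cripto KO. This list too was chosen with earlier results known. Mmp9, a gelatinase that cleaves collagen and opens the matrix, was lower in Control, at 15.2, 22.4 and 21.9, than in Cripto KO samples, at 39.3, 45.6 and 41.5. The log2 ratio was -1.10 with an interval of -1.44 to -0.77 (limma, adjusted p = 0.0313). It kept its direction in all 17 alternatives, at -1.20 to -0.92, with adjusted p-values between 1.4e-09 and 0.296, and the call was lost in 7 of them. These were quantile normalization, eBayes without a trend, the replicate block, and the fits without Control 3 or without any one of the Cripto KO samples. Without Control 1 and without Control 2 the adjusted p was 0.00764 and 0.0449.

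Ptgs2 (COX-2, which makes prostaglandins) differed the other way, at 331, 317 and 324 in Control and at 252, 243 and 246 in Cripto KO samples. Its ratio of 0.39 with an interval of 0.26 to 0.52 missed the threshold (limma, adjusted p = 0.0571), also without Control 1 (0.0668) and without Control 2 (0.116). It passed with the robust option of limma and in DESeq2, and adjusted p-values over the alternatives were between 0.00043 and 0.336. Hmox1, which breaks down heme and is also a target of NRF2, was at 2557, 1734 and 2260.4 in Control and at 3073, 3009 and 2942 in Cripto KO samples, a ratio of -0.48 (limma, adjusted p = 0.415). It passed in DESeq2 alone, with adjusted p-values between 0.014 and 0.833 over the alternatives, of 0.108 without Control 1 and 0.543 without Control 2 in limma. Known AP-1 targets thus had values in both directions, and their median was -0.03. MPs use other factors at these genes too.

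**Figure D5:**
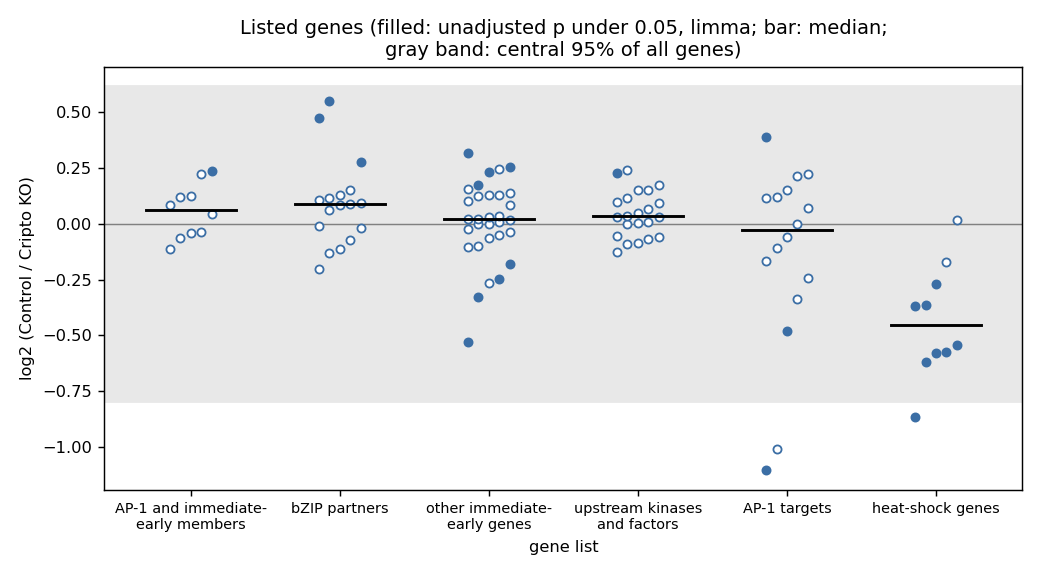
Log2 ratio of Control to Cripto KO (vertical axis) for each gene of 6 lists, filled at an unadjusted p under 0.05 in limma, with the median as a bar and the central 95% of all genes (-0.80 to 0.62) in gray. The 10 AP-1 and immediate-early genes lie between -0.11 and 0.24, Mmp9 is lowest at -1.10, and the heat-shock genes have a median of -0.45.

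Heat-shock genes respond to protein damage and, like the immediate-early genes, to handling. Of 10 measured, 0 passed an adjusted p of 0.05 in limma and edgeR and 6 did in DESeq2 (71 of all 13008 genes). An unadjusted p under 0.05 in limma was found for 8 of them, all higher in Cripto KO, against 8.59% of all genes in either direction. The list was chosen with earlier results of these data known, so this share describes it and does not test it. The ratio was negative for 9 of the 10 and 0.02 for the exception, Hspa8. They summed to 15234 to 18453 in Control and to 20886 to 23017 in Cripto KO samples. Hsph1 had the largest ratio, -0.87 (limma, adjusted p = 0.0792). It passed the threshold without Control 1 (limma, adjusted p = 0.0307) and missed it without Control 2 (0.141). The part of handling in the values of the 10 genes was not tested.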

How the data were processed

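RNA was taken from 3 Control and 3 Cripto KO samples of sorted MPs. Per the labels and the study's methods, the authors checked reads with FastQC, trimmed them with cutadapt (version 1.7.1), quantified them on the GRCm38 transcriptome (release 91) with RSEM (version 1.2.20) and normalized them with limma and edgeR. The deposited values are a normalized signal per gene, in reads plus 0.5 per 1000000 reads of normalized library, and none was 0. All samples were normalized in 1 table, so a change in total RNA per cell is not seen. Dividing by the step of 1 read in each sample gave whole reads, to within 0.01 read, for 100.0% of 78048 values. Totals were 12688968 to 15659847 reads per sample.

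The main test was limma (version 3.58.1, R 4.3.3), lmFit and eBayes with a trend on log2 of the deposited values as they stood, two-sided, with Benjamini-Hochberg adjustment over all 13008 genes. The same fit was also run on simulated counts with the same setting of spread between samples for every gene. No result given here rests on that run. Intervals are 95% intervals of the main test. The study calls the samples biological replicates, and the labels do not tie them to animals, so p-values measure the spread between these samples. Alternatives were a pseudocount of 0.5 or 1, only genes with a mean of 1 or more, median centring, quantile normalization, no trend, robust eBayes, voom weights, a replicate block, leaving out each sample, and count tests on recovered reads with edgeR (version 4.0.16, quasi-likelihood, TMM) and DESeq2 (version 1.42.0). The 10 genes and the lists were chosen with earlier results of these data known, so the share of a list beside that of all genes is a description. Named were all 10 genes, the genes of each other list of the pathway with an unadjusted p under 0.05 (of the heat-shock list, only Hsph1 is described) and the 3 nearest genes of each of the 10. Positions are from GENCODE mouse release 21, lengths from 12989 genes, and promoters from RefSeq. Figures were drawn with Python 3.11.15 and matplotlib 3.10.9.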

Additional observations from a re-analysis of the deposited data

How the results depend on the processing

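The number of the 10 genes with an adjusted p under 0.05 was 0 in all 17 alternatives, and that with an unadjusted p under 0.05 was 1 in the 11 with all samples and 0 to 2 when 1 sample was left out. No ratio of the 10 genes changed sign with all samples. With 1 sample left out, that of Fos ran from -0.12 to 0.032, that of Ier2 from -0.11 to 0.033 (both above 0 without Cripto KO 1) and that of Jun from -0.053 to 0.19 (below 0 without Control 2, at -0.053, and without Cripto KO 2 or Cripto KO 3, at -0.03). The cause was not tested. Over the whole table limma called 17 genes, edgeR 17, quantile normalization 6, eBayes without a trend 5 and with the robust option 31, voom weights 9, DESeq2 71, and fits that left out 1 sample 5 to 31, the most without Control 1. Known AP-1 targets called were 1 in the main fit, 0 with quantile normalization or without a trend, 2 with the robust option, 3 in DESeq2 and 0 to 1 with 1 sample left out. Other immediate-early genes called were 0, and 1 in DESeq2. Heat-shock genes called were 0, 1 with the robust option, 6 in DESeq2 and 0 to 1 with 1 sample left out. Among same-numbered samples, deviations correlated at -0.21 for number 1 and by less than 0.01 in size for the other two, so the numbers were not taken as pairs. The replicate block left 2 genes over the whole table, 0 known AP-1 targets and 0 of the 10 genes, with an adjusted p of 0.684 for Atf3. Chosen after seeing the data, the length of the principal transcript gave mean levels per kb of 758 for Fos, 369 for Fosb, 95.04 for Fosl2, 2277 for Junb and 39.8 for Maff. Depth did not limit the 10 genes, since counting error was at most 3.04%. With 3 samples a group, ratios of less than about the half-width of the intervals could not be told from 0 even without adjustment. The test adjusted over all genes needs larger ratios. The interval of Atf3 left out 0, yet its adjusted p was 0.500 in limma.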
